A study of Mus musculus with 9 samples.

Results

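The genes described here are the glycolytic enzymes and the hypoxia response genes of cultured mouse lung cells, followed through loss of the transcription factor Nrf2 and through supplementation of the Nrf2-deficient cells with glutathione (GSH). The set holds 35 genes: 17 glycolytic enzymes, 5 transporters and regulators of sugar flux, 4 genes for hypoxia-inducible factor (HIF) alpha subunits and their prolyl hydroxylases, and 9 other genes that HIF is known to activate. A gene was measured through the probe set that carried its symbol alone, and where a gene had several such probe sets, the brightest on average was taken. By this rule 32 of the 35 genes were measured, out of 18193 genes that had such a probe set among the 45037 analysed, and all 32 passed the filter on dim probe sets. Gpi1 and Eno1 had no listed probe set, and Gapdh was carried alone only by the control probe sets of the array.

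The study measured RNA of alveolar type II cell cultures on 9 Affymetrix Mouse 430 2.0 arrays, in 3 groups of 3. The knockout with GSH arrays held Nrf2-/- cells given GSH, the knockout arrays held Nrf2-/- cells, and the wild type arrays held Nrf2+/+ cells. All cells came from mice described as female, 2 months old and of the ICR10 strain, and had been depleted of macrophages and fibroblasts by adherence before 5 days of culture with keratinocyte growth factor. The sources give neither the dose nor the duration of GSH, which is named only in the sample source and characteristics, and the treatment field lists no treatment. Whether the 3 arrays of a group hold RNA of different animals or cultures is not stated, so the p-values measure only the spread between these arrays, and 3 arrays a group limit the precision. Each group enters 2 of the 3 comparisons, so these share arrays, and their values are set side by side.

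Glycolysis breaks glucose down to pyruvate, which lactate dehydrogenase can reduce to lactate when pyruvate is not burned in mitochondria. Oxygen-dependent prolyl hydroxylases mark the HIF alpha subunits for destruction. When oxygen is scarce the subunits persist, enter the nucleus and raise the transcription of many glycolytic enzymes and of genes for vessel growth, mitochondrial turnover and collagen synthesis. Nrf2 controls genes for GSH synthesis and antioxidant defence, and GSH is the main soluble thiol of the cell.

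Nfe2l2, the gene for Nrf2, had an intensity of 45.3, 46.2 and 33.3 in knockout with GSH, 73.6, 77.4 and 28.7 in knockout, and 3878.6, 3889.8 and 4172.8 in wild type. The 6 arrays of Nrf2-/- cells were far below all 3 wild type arrays (limma, log2 knockout over wild type -6.18, adjusted p = 2.6e-08). The signal exceeded the level of the control probe sets on 0 of 3 knockout with GSH arrays, 2 of 3 knockout arrays and 3 of 3 wild type arrays, so the size of this difference was taken partly against background. Where this probe set lies relative to the disrupted part of the gene is not stated. A second, dim Nfe2l2 probe set below the filter averaged 147.9 ± 36.06 in knockout with GSH, 46.67 ± 19.04 in knockout and 42.2 ± 8.316 in wild type (SD, n = 3 each). The arrays fell into 2 sets by the second number in their titles, whose meaning is not given, and each group had 2 arrays in set 2 and 1 in set 3. Correlations between arrays were 0.979 to 0.99 within a group and set, and 0.95 to 0.968 within a group across sets, so the set was a term of the fit. Although all samples are labelled female, Xist, the RNA that silences an X chromosome, lay at 2693.5 to 4776.6 in knockout with GSH, 2443.8 to 4642.9 in knockout and 132.2 to 187.8 in wild type. The Y-linked gene Eif2s3y lay at 1.9 to 16.2 in knockout with GSH, 1.5 to 24.4 in knockout and 701.3 to 936.3 in wild type. Genotype and this difference cannot be told apart in the comparisons with wild type.

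The cultures carried RNA of other cell types, and their markers moved between groups. Over all probe sets tested, 14.6% were called each way in knockout over wild type, at a limma adjusted p under 0.05. With GSH over knockout, 18.4% were called higher and 17% lower. Of 17 fibroblast and mesenchymal markers, 15 were lower and 0 higher in knockout with GSH than in knockout, with a median log2 of -2.43, and 10 were higher and 1 lower in knockout than in wild type. Their summed intensity was 82957.6 to 96756.2 in knockout with GSH, 148337.8 to 195829.3 in knockout and 124183.7 to 136778.8 in wild type. Of 20 macrophage markers, 18 were higher and 2 lower in knockout than in wild type, the lower ones being Itgax (log2 -1.18) and Siglecf (-1.80). The macrophage markers summed to 140224.4 to 166926.2 in knockout with GSH, 107031.8 to 128514.7 in knockout and 67533.8 to 70684.3 in wild type. The 12 type II markers summed to 9251.1 to 10960.9 in knockout with GSH, 5939.7 to 6940.0 in knockout and 5950.8 to 7263.9 in wild type. Type I markers summed to 13568.3 to 14898.9 in knockout with GSH, 12420.4 to 15604.8 in knockout and 16585.2 to 18932.4 in wild type, and 6 of 9 tested were lower and 0 higher in knockout than in wild type. Club and ciliated markers summed to 2808.1 to 3035.3 in knockout with GSH, 503.1 to 739.8 in knockout and 6557.4 to 7942.5 in wild type. In wild type nearly all of that sum was Scgb1a1, the club cell secretory protein (mean 6725.0, against 281 in knockout). Its log2 was -4.57 in knockout over wild type (limma adjusted p = 1.1e-10). Only 2 of the 6 markers passed the filter, and Foxj1, the other, was not called (log2 -0.78, adjusted p = 0.07). Scgb3a2, Cyp2f2 and Ccdc39 exceeded the control level on no wild type array, so the sum does not describe the whole list. Endothelial markers summed to 2540.6 to 2853.0 in knockout with GSH, 2514.3 to 2795.2 in knockout and 3917.4 to 4158.9 in wild type. Surfactant protein C (Sftpc), a defining type II marker, averaged 107.8 ± 30.27 in knockout with GSH, 89.1 ± 48.71 in knockout and 37.27 ± 10.29 in wild type, where no array exceeded the level set by control probe sets. Sftpc was the only one of the 12 type II markers at or under that level on every array of a group. No type I, fibroblast or macrophage marker was at or under it on every array of a group. In cultures of mixed cells, fewer cells of a type and less RNA per cell cannot be told apart, and the part of these marker changes in the changes of the glycolysis and hypoxia genes was not tested.

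**Figure D1:**
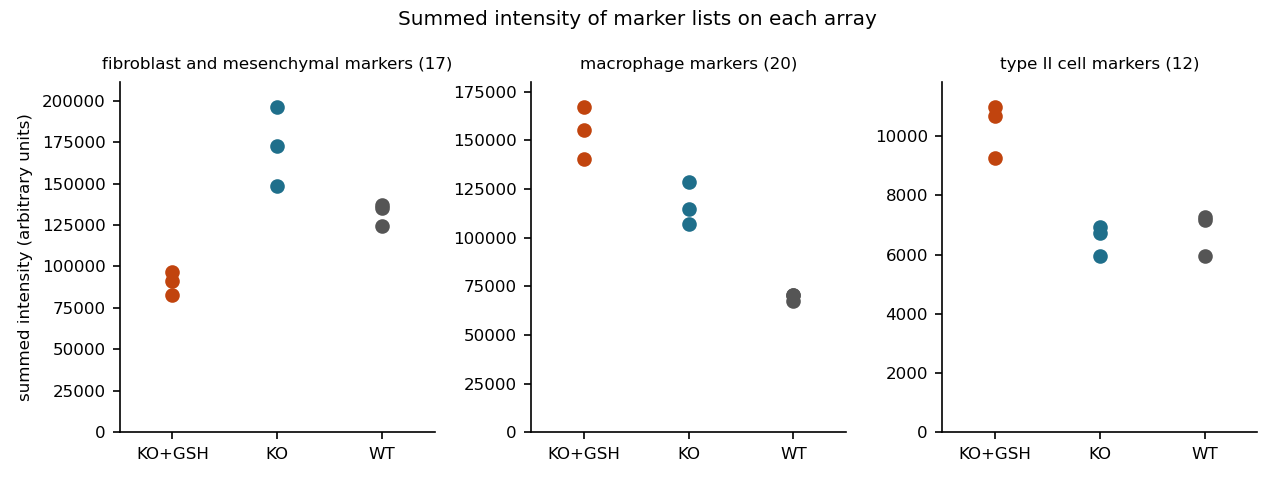
Summed intensity of the fibroblast, macrophage and type II marker genes, 1 point per array, with knockout with GSH, knockout and wild type from left to right. Fibroblast markers are lowest on the 3 knockout with GSH arrays, and macrophage markers are lowest on the 3 wild type arrays.

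Most glycolytic enzymes were higher in knockout than in wild type cells, and with GSH some rose and others fell. Of the 14 measured enzymes, 12 were higher and 0 lower in knockout than in wild type, with a median log2 of 0.32 against 0.00 over all probe sets tested. Over all probe sets 14.6% were called higher and 14.6% lower in this comparison, at an adjusted p under 0.05. Over the whole gene set, 19 of 32 genes (59.4%) were higher and 3 (9.38%) lower. The count of 12 enzymes became 6 with quantile normalisation, 5 without wild type replicate 3 and 6 without wild type replicate 4, with all 14 differences above 0 in each case. It became 4 without the set term. The macrophage markers were higher in knockout as well, with sums that did not overlap those of wild type, and their part in these counts was not tested. The enzymes called in every refit, apart from the 1.5-fold rule that the design text names, were Hk1, Hk3, Pfkl and Pfkp, and of all 22 calls in knockout over wild type 6 held there, the others being Bnip3 and Ndrg1. With GSH, 4 of the 14 enzymes were higher and 3 lower than in knockout, with a median log2 of 0.00 against 0.04 over all probe sets tested, of which 18.4% were called higher and 17% lower.

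Hexokinases commit glucose to the pathway by phosphorylating it. Hk3 had an intensity of 1382.0, 1606.0 and 1867.3 in knockout with GSH, 1368.8, 1397.2 and 1643.1 in knockout, and 777.6, 818.0 and 868.0 in wild type. Every Nrf2-/- array lay above every wild type array, while the GSH and knockout arrays overlapped. Hk3 was 1.79-fold higher in knockout than in wild type (log2 0.84, 95% interval 0.66 to 1.01, adjusted p = 1.7e-05), and on this probe set it did not pass the test with GSH (log2 0.13, -0.05 to 0.31, adjusted p = 0.23). The other kept Hk3 probe set was higher with GSH than in knockout (log2 0.33, 0.14 to 0.52, adjusted p = 0.01) and in knockout than in wild type (log2 0.81). Hk1 had 3240.0, 3019.2 and 2863.7 with GSH, 2742.6, 2560.1 and 2624.9 in knockout, and 1858.3, 1837.4 and 1995.6 in wild type. The 3 groups of Hk1 did not overlap. Hk1 was higher in knockout than in wild type (log2 0.48, adjusted p = 3.6e-04) and higher again with GSH (log2 0.20, adjusted p = 0.043). The Hk1 call with GSH over knockout held in 7 of 19 refits, and in 3 of the 9 that left out 1 array. It was lost with the replicate number as a block (adjusted p = 0.1), without the set term and in set 2 alone (adjusted p = 0.054), among others. Hk2, an inducible hexokinase, was 3485.1, 3332.2 and 3627.2 with GSH, 2895.6, 2637.5 and 3060.8 in knockout, and 2689.4, 2736.3 and 2999.9 in wild type. All 3 GSH arrays were above the others, with a log2 of 0.28 over knockout (adjusted p = 0.0035), against 0.03 for knockout over wild type (-0.11 to 0.16, adjusted p = 0.78).

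Phosphofructokinase catalyses the main control step of glycolysis, and its 3 subunit genes did not share a pattern. Pfkl, the liver type subunit, was 3956.4, 3671.7 and 3145.2 with GSH, 2979.1, 2630.3 and 2511.3 in knockout, and 2017.8, 1976.4 and 1610.6 in wild type. The groups did not overlap, and Pfkl was higher in knockout than in wild type (log2 0.54, adjusted p = 1.6e-04) and higher with GSH than in knockout (log2 0.41, adjusted p = 8.2e-04). The other kept Pfkl probe sets were not called with GSH (log2 0.16 and 0.10). Pfkp, the platelet type, was 1677.0, 1582.0 and 1823.4 with GSH, 1751.7, 1795.5 and 1685.3 in knockout, and 1101.6, 1112.2 and 1131.2 in wild type, with all Nrf2-/- arrays above wild type. Pfkp was higher in knockout than in wild type (log2 0.65, adjusted p = 4.8e-05) and was not called with GSH over knockout (log2 -0.04, -0.20 to 0.11). Pfkm, the muscle type, was 577.3, 570.0 and 504.0 with GSH, 952.7, 1117.2 and 858.5 in knockout, and 779.1, 724.7 and 755.5 in wild type, with the knockout arrays highest and the GSH arrays lowest. Pfkm was higher in knockout than in wild type (log2 0.37, adjusted p = 0.015) and 1.77-fold lower with GSH than in knockout (log2 -0.82, adjusted p = 4.7e-05). The Pfkm call in knockout over wild type held in 14 of 19 refits, and in 6 of the 9 that left out 1 array.

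Aldoc, an aldolase isozyme, was 2133.0, 2135.5 and 2156.5 with GSH, 1043.6, 1097.3 and 1014.4 in knockout, and 844.2, 892.4 and 925.0 in wild type. The GSH arrays stood far above both other groups, which also did not overlap. Aldoc was 2.04-fold higher with GSH than in knockout (log2 1.03, 0.87 to 1.18, adjusted p = 5.6e-07) and higher in knockout than in wild type (log2 0.25, adjusted p = 0.023). The Aldoc call in knockout over wild type held in 14 of 19 refits, and in 6 of the 9 that left out 1 array. Eno2, an enolase isozyme, was 303.5, 360.9 and 427.4 with GSH, 518.1, 516.9 and 635.8 in knockout, and 422.5, 432.0 and 482.8 in wild type. The knockout arrays were highest, and Eno2 fell with GSH by 0.62 on the log2 scale (adjusted p = 9.0e-04). Its rise in knockout over wild type was close to the threshold (log2 0.32, adjusted p = 0.049). That call held in 6 of 19 refits, and in 1 of the 9 that left out 1 array.

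Ldha, which makes lactate, was 17884.2, 15598.1 and 14086.4 with GSH, 17066.9, 18823.0 and 14685.7 in knockout, and 13846.3, 13726.5 and 12189.6 in wild type. The knockout arrays lay above all wild type arrays, and the GSH arrays overlapped the knockout arrays. Ldha was higher in knockout than in wild type (log2 0.34, adjusted p = 0.0034) and did not pass with GSH (log2 -0.09, -0.24 to 0.06). Aldoa, Pgk1, Pgam1 and Tpi1, the enzymes of the middle steps, were higher in knockout than in wild type by a log2 of 0.22 to 0.33 on the probe sets used (limma adjusted p 0.011 to 0.035). For Aldoa the other 4 kept probe sets were not called (log2 0.17, 0.20, -0.01 and 0.08), and for Pgk1 the other 2 gave 0.19, called, and -0.15, not called. With the mean of all probe sets of a gene, the calls of Aldoa (log2 0.15, adjusted p = 0.068) and Pgk1 (log2 0.12, adjusted p = 0.09) were lost. In knockout over wild type, the calls of Aldoa and Tpi1 held in 12 of 19 refits, that of Pgk1 in 9 and that of Pgam1 in 8. Tpi1 alone of these fell with GSH (log2 -0.18, adjusted p = 0.021), a call lost with the replicate block (adjusted p = 0.11). Pkm, the pyruvate kinase, just missed the threshold in knockout over wild type (log2 0.22, 0.05 to 0.40, adjusted p = 0.052). The Gapdh control probe set at the 3' end averaged 19432.2 ± 2764.2 with GSH, 19293.0 ± 3513.8 in knockout and 14195.3 ± 1442.0 in wild type (SD, n = 3 each), given without a test.

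**Figure D2:**
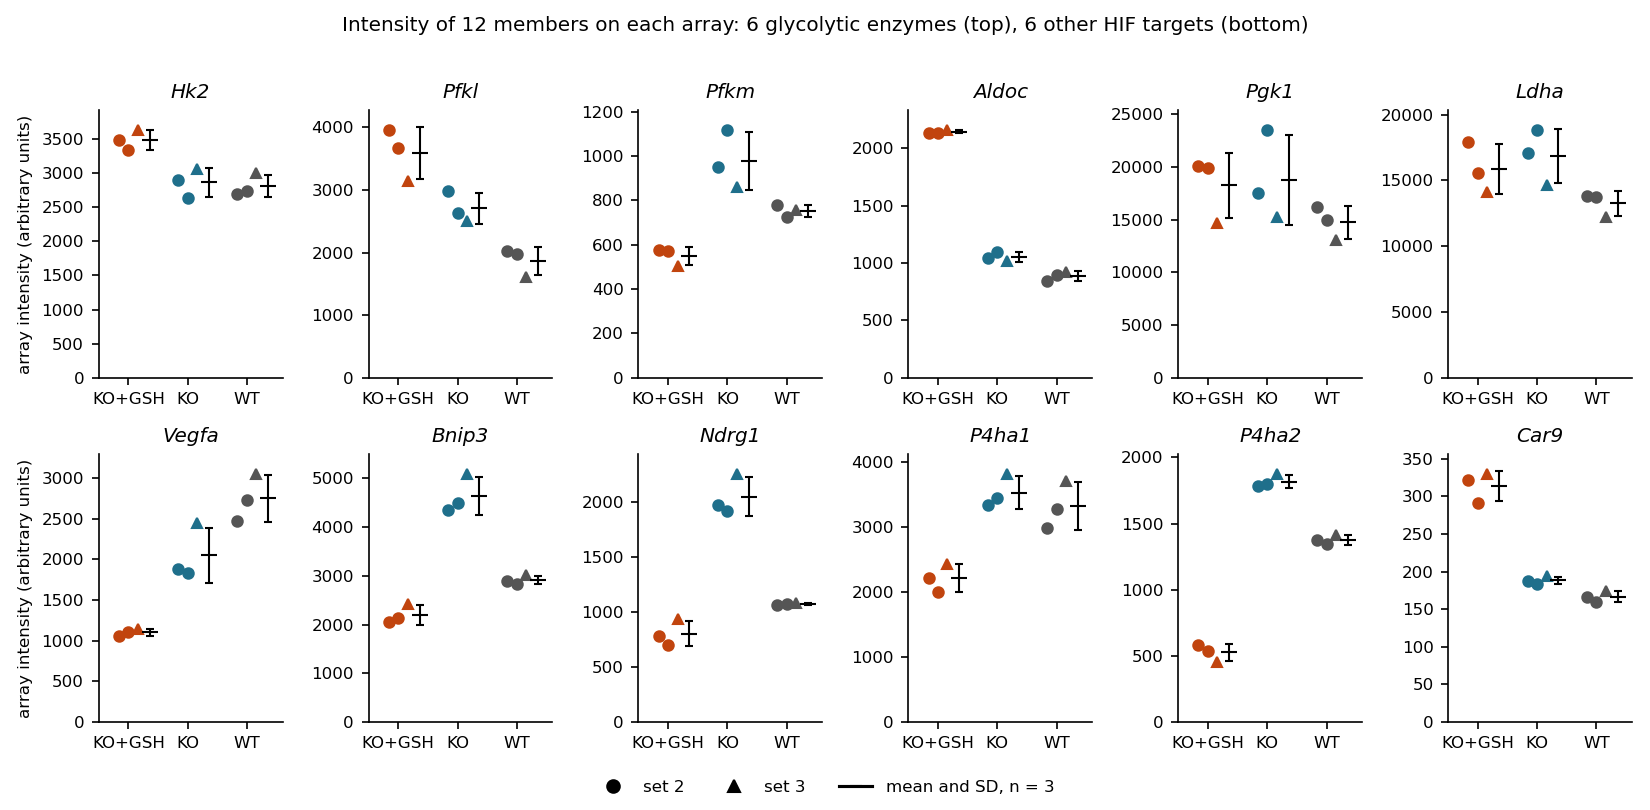
Intensity on each array of 12 genes, with knockout with GSH, knockout and wild type from left to right, circles for set 2, triangles for set 3, and bars for the mean and SD of 3 arrays. Aldoc is highest on the GSH arrays, and Bnip3, Ndrg1 and P4ha2 are highest on the knockout arrays and lowest on the GSH arrays.

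Of the 5 transporters and regulators of flux, 2 were higher and 0 lower in knockout than in wild type, where 14.6% of all probe sets were called each way. With GSH over knockout 2 were higher and 2 lower, where 18.4% of all probe sets were called higher and 17% lower. Pfkfb4, a bifunctional enzyme that makes and breaks down a sugar phosphate activator of phosphofructokinase, was 1284.8, 1286.4 and 1341.5 with GSH, 788.3, 838.3 and 796.4 in knockout, and 734.3, 688.2 and 606.2 in wild type. The groups did not overlap. Pfkfb4 was higher in knockout than in wild type (log2 0.26, limma adjusted p = 0.041), a call that held in 7 of 19 refits. It was 1.62-fold higher with GSH than in knockout (log2 0.69, adjusted p = 6.9e-05). Its relative Pfkfb3 was 1923.6, 1796.3 and 1618.9 with GSH, 1372.3, 1302.6 and 1144.2 in knockout, and 1065.9, 1189.8 and 1074.0 in wild type. The GSH arrays were above all others, and Pfkfb3 was higher with GSH by a log2 of 0.48 (adjusted p = 4.0e-04). Slc16a3, the lactate exporter MCT4, was 1546.2, 1402.7 and 1341.5 with GSH, 2353.8, 1997.4 and 1693.9 in knockout, and 1520.9, 1506.3 and 1212.4 in wild type. The knockout arrays were above the other groups: knockout exceeded wild type by a log2 of 0.51 (adjusted p = 9.3e-04), and GSH over knockout was -0.48 (adjusted p = 8.4e-04). Slc2a1, the glucose transporter GLUT1, was not called on the probe set used (log2 -0.11 with GSH over knockout, 0.16 in knockout over wild type). Of its other 2 kept probe sets, 1 was higher in knockout than in wild type (log2 0.38, adjusted p = 0.0053), and both were higher with GSH than in wild type (log2 0.29, adjusted p = 0.013, and 0.18, adjusted p = 0.042). Pdk1, which turns pyruvate away from mitochondria, was lower with GSH than in knockout (log2 -0.33, adjusted p = 0.012), but not with the replicate block (adjusted p = 0.12).

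Of the 4 HIF subunit and hydroxylase genes, 1 was higher and 2 lower in knockout over wild type (14.6% of all probe sets each way), and 1 was higher and 2 lower in GSH over knockout (18.4% and 17% of all probe sets). Hif1a, the oxygen-labile subunit of HIF-1, was 7593.3, 7634.4 and 9075.1 with GSH, 11213.8, 11167.3 and 13118.3 in knockout, and 8315.9, 8812.8 and 10362.3 in wild type. All knockout arrays were above the other groups, and the GSH arrays overlapped the wild type arrays in range. Hif1a was nevertheless called lower with GSH than in wild type (log2 -0.18, limma adjusted p = 0.02), a call that held in 12 of 19 refits. Hif1a transcript was higher in knockout than in wild type (log2 0.37, adjusted p = 3.8e-04) and lower with GSH than in knockout (log2 -0.55, adjusted p = 1.1e-05), on all 3 of its kept probe sets with GSH (-0.55, -0.81 and -0.55). Epas1, the HIF-2 alpha subunit, showed the opposite order. It was 1062.4, 1120.8 and 1152.1 with GSH, 757.2, 872.3 and 992.2 in knockout, and 1123.8, 1049.8 and 1276.6 in wild type, with all knockout arrays lowest. Epas1 was lower in knockout than in wild type (log2 -0.40, adjusted p = 0.0047) and higher with GSH than in knockout (log2 0.36, adjusted p = 0.0068), a call lost without the set term and with the mean of its probe sets. Egln3, a prolyl hydroxylase that HIF itself induces, was 487.9, 498.5 and 659.2 with GSH, 776.4, 1056.8 and 952.2 in knockout, and 1136.7, 1164.9 and 1290.5 in wild type. The order was GSH below knockout below wild type without overlap (log2 -0.76, adjusted p = 3.7e-04 for GSH over knockout, and -0.38, adjusted p = 0.033 for knockout over wild type). The Egln3 call in knockout over wild type held in 9 of 19 refits, and in 4 of the 9 that left out 1 array. It was lost without the set term and in set 2 alone (limma adjusted p = 0.13). Egln1, the main hydroxylase, differed between its probe sets and is taken up with those.

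Most of the other HIF targets were lower with GSH than in knockout. Of the 9 genes, 6 were lower and 1 higher with GSH than in knockout, with a median log2 of -0.67 against 0.04 over all probe sets tested. Of all 32 genes, 8 (25%) were higher and 13 (40.6%) lower, set against the 18.4% and 17% of all probe sets. Against wild type, 4 of the 9 (44.4%) were higher and 1 (11.1%) lower in knockout, where 14.6% of all probe sets were called each way. The fibroblast markers were lower with GSH as well, 15 of 17 with a median log2 of -2.43, and their part in the falls was not tested.

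P4ha2, a collagen prolyl hydroxylase subunit, was 582.5, 539.9 and 454.0 with GSH, 1782.7, 1796.6 and 1873.2 in knockout, and 1375.8, 1342.0 and 1416.4 in wild type. The 3 groups were well apart, with GSH lowest. P4ha2 was 3.48-fold lower with GSH than in knockout (log2 -1.80, SE 0.09, adjusted p = 4.8e-08) and higher in knockout than in wild type (log2 0.40, adjusted p = 0.0073). Its relative P4ha1 was 2226.1, 2004.7 and 2428.8 with GSH, 3338.0, 3450.3 and 3818.4 in knockout, and 2991.3, 3282.6 and 3718.2 in wild type. The GSH arrays were lowest (log2 -0.67 with GSH, adjusted p = 1.0e-05), and the knockout and wild type arrays overlapped (log2 0.09, -0.06 to 0.23).

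Ndrg1, a stress-induced differentiation gene, was 779.5, 700.6 and 931.8 with GSH, 1976.7, 1920.1 and 2253.5 in knockout, and 1064.1, 1070.4 and 1083.1 in wild type. Knockout was highest and GSH lowest without overlap: 1.91-fold higher in knockout than in wild type (log2 0.93, adjusted p = 9.0e-06) and 2.56-fold lower with GSH than in knockout (log2 -1.36, adjusted p = 2.3e-07). Its 5 kept probe sets gave log2 values of -1.22 to -1.60 with GSH, all called. Bnip3, a mitophagy receptor, was 2042.1, 2133.9 and 2426.0 with GSH, 4348.8, 4491.8 and 5086.6 in knockout, and 2891.8, 2842.4 and 3013.9 in wild type. The groups did not overlap, and Bnip3 was 2.11-fold lower with GSH (log2 -1.08, adjusted p = 1.0e-07) and higher in knockout than in wild type (log2 0.67, adjusted p = 9.5e-06). Vegfa, the vessel growth factor, had a different order, 1057.9, 1110.7 and 1143.4 with GSH, 1877.5, 1830.0 and 2443.1 in knockout, and 2469.7, 2734.6 and 3046.7 in wild type. No arrays of different groups overlapped. Vegfa was lower in knockout than in wild type (log2 -0.43, adjusted p = 0.0019) and 1.84-fold lower again with GSH (log2 -0.88, adjusted p = 5.2e-06).

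Car9 and Ankrd37 did not follow that fall. Car9, a membrane carbonic anhydrase, was 321.3, 291.6 and 329.5 with GSH, 186.9, 184.1 and 193.6 in knockout, and 166.8, 159.4 and 173.5 in wild type, with all GSH arrays highest. It was 1.67-fold higher with GSH than in knockout (log2 0.74, adjusted p = 0.0017). Ankrd37, a gene induced by hypoxia, was 261.5, 238.1 and 304.6 with GSH, 239.8, 216.4 and 237.4 in knockout, and 115.2, 125.0 and 188.0 in wild type. All Nrf2-/- arrays were above wild type, and those with and without GSH overlapped. It was higher in knockout than in wild type (log2 0.73, adjusted p = 0.0079) and did not pass with GSH (log2 0.21, -0.17 to 0.58, adjusted p = 0.38). Higd1a, a mitochondrial hypoxia gene, was lower with GSH (log2 -0.24, adjusted p = 0.026, but 0.19 with the replicate block), and Ddit4, an inhibitor of mTOR signalling, passed no test (log2 -0.21 with GSH, -0.53 to 0.11).

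**Figure D3:**
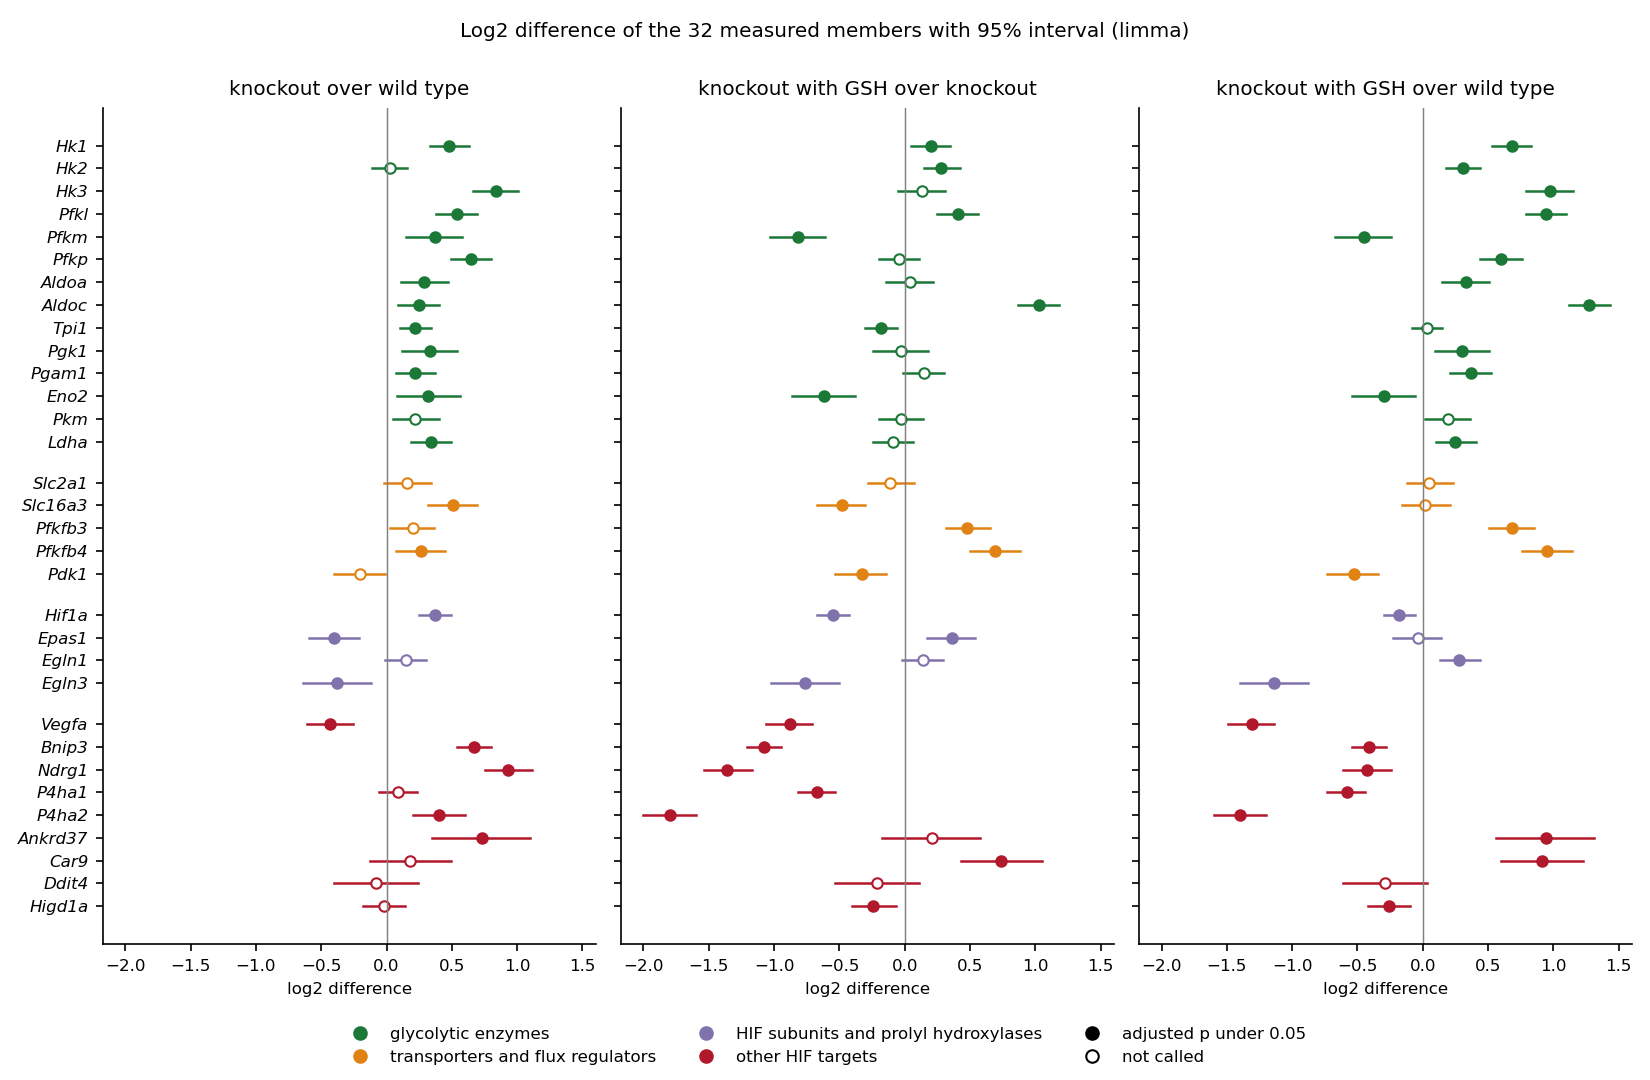
Log2 difference of the 32 genes with its 95% interval in the 3 comparisons, filled where called. All 14 enzymes lie right of 0 in knockout over wild type, and P4ha2, Ndrg1, Bnip3 and Vegfa lie furthest left in knockout with GSH over knockout.

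Knockout with GSH was also set against wild type. Over the 32 genes, 15 (46.9%) were higher and 11 (34.4%) lower in knockout with GSH than in wild type, where 22.5% of all probe sets were called higher and 22.3% lower. Of the 14 enzymes, 10 were higher and 2 lower, and of the 9 other HIF targets, 2 were higher and 6 lower. In the same comparison 19 of 20 macrophage markers were higher (median log2 1.29) and 14 of 17 fibroblast markers lower (median -1.99), and their part in these counts was not tested. Aldoc (log2 1.27, adjusted p = 6.9e-08), Hk3 (0.97) and Pfkfb4 (0.95) were the largest rises of the 32, and P4ha2 (-1.40), Vegfa (-1.31) and Egln3 (-1.14) the largest falls. Bnip3 (log2 -0.41, adjusted p = 1.9e-04) and Ndrg1 (-0.43, adjusted p = 0.0015), both higher in knockout than in wild type, were lower in knockout with GSH than in wild type. Hk1 (0.68) and Pfkl (0.94), also higher in knockout, were further above wild type with GSH. All 22, 21 and 26 calls in the 3 comparisons had the same sign in set 2 and in set 3. Both sets entered the fit that made the calls, so this agreement is no independent check of them.

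**Figure D4:**
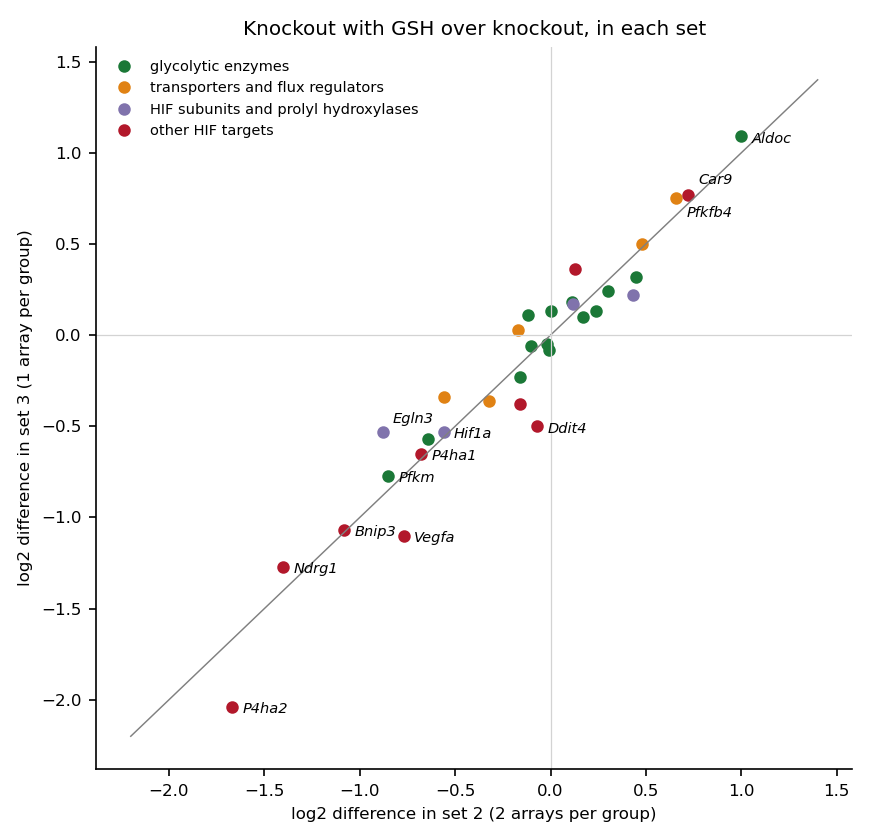
Log2 difference in knockout with GSH over knockout of each of the 32 genes in set 3 against that in set 2, coloured by role, with the diagonal marking equal values. The 21 called genes, called from these same arrays, have the same sign in both sets, and P4ha2 is furthest to the lower left.

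Promoter sequence was read for genes that fell or rose with GSH, to show the stretch next to the start that carries the HIF core. HIF binds ACGTG or GCGTG, and the window of 250 bases before the start was searched on both strands in the RefSeq promoters of GRCm38.p6, where 33 of the 35 genes were in the table (Epas1 and Ndrg1 were not). At least one core was present in 30 of 33 (90.9%), against 11226 of 27025 genes (41.5%), and it was absent from Gpi1, Tpi1 and Eno2. By role, a core was present in 14 of 17 enzymes and 8 of 8 other HIF targets in the table. The list was chosen to hold known HIF targets, and all genes were not matched to it for base composition. The higher share in the list is therefore no independent finding. ACGTG alone was present in 21 of 33 (63.6%), against 18.5% of all genes, and CACGTG, which contains it on both strands, in 5 of 33 (15.2%), against 6.86%. TGACNNNGC, the core of the antioxidant response element, was present in 3 of 33 (9.09%; Hk1, Aldoa and P4ha1), against 11.5% of all genes. A match describes letters and is no proof of binding. The 120 bases next to the start are printed for the 3 largest falls and rises with GSH among called genes that have a core there. A core in each printed stretch therefore follows from the choice. Among falls larger than that of P4ha1, Ndrg1 had no promoter to read, and Vegfa, Pfkm and Egln3 had no core in those 120 bases. Sequences run 5′ to 3′ on the strand of the gene, with the cores on either strand in capitals.
P4ha2 (chr11:54100804-54100923, plus strand): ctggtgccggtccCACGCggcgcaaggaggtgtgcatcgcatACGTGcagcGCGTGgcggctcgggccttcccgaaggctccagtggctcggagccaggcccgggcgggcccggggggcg
Bnip3 (chr7:138909507-138909626, minus strand): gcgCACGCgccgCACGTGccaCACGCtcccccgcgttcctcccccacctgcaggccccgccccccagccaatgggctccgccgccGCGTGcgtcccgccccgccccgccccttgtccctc
P4ha1 (chr10:59323176-59323295, plus strand): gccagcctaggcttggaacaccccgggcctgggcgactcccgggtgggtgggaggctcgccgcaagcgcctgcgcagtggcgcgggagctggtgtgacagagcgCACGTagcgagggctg
Aldoc (chr11:78322953-78323072, plus strand): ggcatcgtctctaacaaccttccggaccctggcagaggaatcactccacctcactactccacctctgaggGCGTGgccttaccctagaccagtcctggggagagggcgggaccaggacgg
Car9 (chr4:43506906-43507025, plus strand): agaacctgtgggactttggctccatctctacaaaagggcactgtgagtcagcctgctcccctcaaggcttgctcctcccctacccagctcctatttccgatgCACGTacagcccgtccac
Pfkfb4 (chr9:108991782-108991901, plus strand): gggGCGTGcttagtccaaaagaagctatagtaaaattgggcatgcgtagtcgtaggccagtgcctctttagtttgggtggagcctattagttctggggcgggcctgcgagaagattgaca

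Other genes of these pathways were taken from 3 further lists. Of 27 tested genes of glycolysis and pyruvate use, 2 were higher and 6 lower in knockout than in wild type, 2 were higher and 7 lower with GSH than in knockout, and 2 were higher and 11 lower with GSH than in wild type. These are 7.41% and 22.2%, 7.41% and 25.9%, and 7.41% and 40.7% of the list, against 14.6% and 14.6%, 18.4% and 17%, and 22.5% and 22.3% of all probe sets. Slc2a3, the glucose transporter GLUT3, averaged 220.0 ± 20.12 with GSH, 415.2 ± 76.87 in knockout and 852.4 ± 104.9 in wild type (SD, n = 3), and fell by 1.05 in knockout against wild type (adjusted p = 2.8e-05) and by 0.90 with GSH (adjusted p = 5.1e-05) on the log2 scale. Ldhb, the heart type lactate dehydrogenase, and Eno3, the muscle enolase, were lower with GSH than in knockout (log2 -1.36 and -1.44, adjusted p = 8.6e-07 and 1.7e-05). Pdp1, a phosphatase that activates pyruvate dehydrogenase, was higher in knockout than in wild type (log2 0.73, adjusted p = 0.0036), and Bpgm, which makes the bisphosphoglycerate of red cells, was lower (log2 -0.72, adjusted p = 0.0046). Against wild type, Slc2a3 (log2 -1.95), Eno3 (-1.71) and Slc16a1, a monocarboxylate transporter (-1.03), were lower with GSH. Of 10 tested genes of oxygen sensing, 1 was lower and 0 higher in knockout than in wild type, namely Hif1an, the asparagine hydroxylase of HIF (log2 -0.43, adjusted p = 0.012), a share not above the 14.6% of all probe sets called each way. With GSH over knockout 2 of the 10 were higher and 2 lower, near the 18.4% and 17% of all probe sets, and the named ones were Arnt2, a HIF partner subunit (log2 -1.23, adjusted p = 3.8e-04), Cul2, of the ubiquitin ligase that removes HIF alpha (-0.34, adjusted p = 0.0093), and Ep300, a HIF coactivator (0.37, adjusted p = 0.011). With GSH over wild type 1 was higher and 2 lower, against 22.5% and 22.3% of all probe sets.

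Of 24 tested genes linked to HIF, 5 were higher and 5 lower in knockout than in wild type, 7 were higher and 9 lower with GSH than in knockout, and 9 were higher and 7 lower with GSH than in wild type. These are 20.8% and 20.8%, 29.2% and 37.5%, and 37.5% and 29.2% of the list, against 14.6% and 14.6%, 18.4% and 17%, and 22.5% and 22.3% of all probe sets. Adm, the vasodilator adrenomedullin, averaged 869.1 ± 53.91 with GSH, 5881.5 ± 468.1 in knockout and 1574.9 ± 53.82 in wild type. It was 6.76-fold lower with GSH than in knockout (log2 -2.76, adjusted p = 3.4e-10) and 3.73-fold higher in knockout than in wild type (log2 1.90, adjusted p = 1.7e-08). Edn1, the vasoconstrictor endothelin, showed the opposite order, at 3520.5 ± 526.4 with GSH, 869.5 ± 241.6 in knockout and 1832.7 ± 438.9 in wild type (log2 2.05 with GSH, adjusted p = 1.5e-08, and -1.09 in knockout over wild type, adjusted p = 5.0e-06). Plod2, a collagen lysyl hydroxylase, was lower with GSH (log2 -1.91, adjusted p = 6.8e-08), as P4ha1 and P4ha2 were. Bhlhe40, a circadian and hypoxic repressor, was lower in knockout than in wild type (log2 -0.80, adjusted p = 9.2e-06). Against wild type, Hilpda, a lipid droplet protein, was higher with GSH (log2 1.58, adjusted p = 6.4e-07), and Pgf, a placental growth factor, was lower (log2 -2.78, adjusted p = 1.1e-06), with 2 of 3 GSH arrays above the control level.

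Probe sets of 1 gene did not always agree. Of the 32 genes, 18 had several kept probe sets, 48 in all, and those of 6 genes were all called the same way with GSH over knockout, and those of 4 in knockout over wild type. Egln1 was 1292.2 ± 47.96 with GSH, 1175.0 ± 32.53 in knockout and 1062.8 ± 45.47 in wild type (SD, n = 3) on the probe set used, with no call for GSH over knockout (log2 0.14, -0.02 to 0.29). On its other probe set it was 669.6 ± 49.89 with GSH, 1425.5 ± 333.6 in knockout and 971.9 ± 283.0 in wild type, and lower with GSH than in knockout (log2 -1.06, adjusted p = 8.9e-05). The direction of Egln1 with GSH therefore depends on the probe set. With GSH over knockout, a call on the probe set used was not shared by every other kept probe set for Pdk1 (log2 -0.09 and -0.19), Pfkfb3 (0.39, adjusted p = 0.097), Epas1 (0.04), Egln3 (-0.45, adjusted p = 0.057) and Higd1a (0.14). The same held for Pfkl (0.16 and 0.10). In knockout over wild type this held for Hk1 (0.37, adjusted p = 0.063), Pfkl (0.07 on 1 of 2 others), Pfkp (0.16), Tpi1 (0.12 on 1 of 2 others), Epas1 (-0.23) and Egln3 (-0.43, adjusted p = 0.078). It held as well for Aldoa (0.17, 0.20, -0.01 and 0.08) and Pgk1 (-0.15 on 1 of 2 others). The probe sets used for Hk3, Aldoa, Tpi1 and Pgk1 carry the array's mark for probes that may bind unrelated transcripts, and that of Ndrg1 the mark for probes shared among transcripts.

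**Figure D5:**
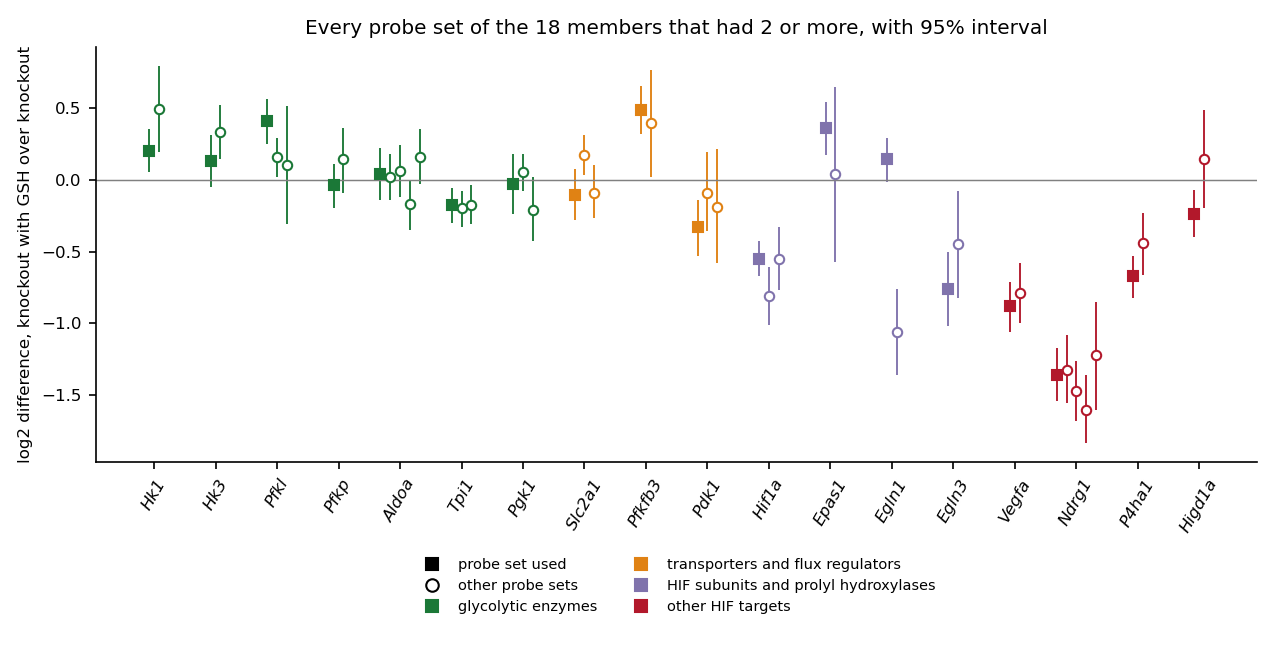
Log2 difference with GSH over knockout with its 95% interval for every kept probe set of the 18 genes that have several, squares marking the probe set used. The 5 probe sets of Ndrg1 all lie below -1.2, and those of Egln1 lie on both sides of 0.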

How the data were processed

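Intensities of 45101 probe sets on 9 arrays were used as the authors deposited them, on a linear scale; every array had a 2% trimmed mean of 500, and no source used here names the software that summarised probes. Control probe sets (64) were left out, values were taken to log2 after 2 at 0 were set to 0.1, and probe sets below the median mean log2 (a geometric mean of 116) were dropped, which kept 22519. Symbols were read from the platform annotation at GEO. It gave a single symbol to 34945 probe sets, several to 932 and none to 9160, and only the single ones were named. The level of the control probe sets (95th percentile of 27) was 43.4 to 82.9 by array. A model over the 9 arrays, with terms for group and set, was fitted in limma 3.58.1 (R 4.3.3) with moderation along the intensity trend; residual degrees of freedom were 5 and prior ones 6.08. A call means an adjusted p under 0.05 (Benjamini-Hochberg, over all 22519). The fit was tested on simulated data.

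The genes and lists were chosen with earlier results of these data known. Every gene is reported through 1 probe set, and up to 3 called genes with the smallest adjusted p are named from each further list; names beyond that rule were chosen after their values were seen. Same-numbered arrays of knockout with GSH and knockout were treated as pairs for the replicate block, since what remained after subtracting group means gave correlations of 0.32, 0.29 and 0.67 over the kept probe sets. Arrays of set 2 with different numbers gave 0.39 and 0.24, so the correlations do not separate the number from the set. The shared numbers of knockout and wild type gave 0.42 for arrays of the same set and -0.49 for arrays of different sets. Those values cannot show whether the numbers pair these arrays. Alternatives were quantile normalisation, other filters, 50 added before log2, no set term, the replicate block, set 2 alone, only the 6 arrays compared, no intensity trend, the mean of a gene's probe sets, the fold rule in the series design text and leaving out each array.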

Additional observations from a re-analysis of the deposited data

How the results depend on the processing

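In knockout over wild type, the 19 higher and 3 lower genes became 8 and 0 without the set term, 8 and 0 with the replicate block and 5 and 0 with the fold rule, and 12 to 20 and 2 to 3 when 1 array was left out (12 without wild type replicate 3 or 4). The 12 higher enzymes became 6 with quantile normalisation, 4 without the set term, 4 with the block, 2 with the fold rule and 5 to 13 with 1 array left out; their median of 0.32 became 0.19 with quantile normalisation and 0.26 with the block. The 1 lower other HIF target became 0 without the set term, with the block and with the fold rule. Called probe sets were 6560, against 2774 without the set term, 3253 with the block, 3960 with gene means and 2309 with the fold rule. With GSH over knockout, the 8 higher and 13 lower genes became 3 and 7 with the fold rule, the 4 higher and 3 lower enzymes 1 and 1, and the enzyme median ranged over -0.02 to 0.10 with 1 array left out (0.10 without knockout replicate 3). The 1 higher other HIF target became 0 with the 70th percentile filter, where their median was -0.88. Called probe sets were 7964, against 4574 without the set term, 4822 with gene means and 3423 with the fold rule. With GSH over wild type, the 15 higher genes became 8 with the fold rule, and the 11 lower became 7 without the set term, 7 with the block and 3 with the fold rule. The 10 higher enzymes became 6 without the set term, 6 with the block and 4 with the fold rule; the 2 lower became 1 with no filter, no set term, the block, set 2 alone and the 6 arrays compared, 0 with the fold rule, and 1 to 2 with 1 array left out (1 without wild type 3, 4 or 5, knockout with GSH 2 or 4, or knockout 4). The enzyme median of 0.32 became 0.17 with quantile normalisation and 0.19 with the block. Other HIF targets changed to 0 higher with the 70th percentile filter and 2 lower with the fold rule. Called probe sets were 10074, against 6181 without the set term, 6586 with the block, 5703 with gene means and 4539 with the fold rule. Signs reversed for Egln1 with gene means (-0.46 with GSH over knockout, -0.11 over wild type), for Tpi1 over wild type with quantile normalisation (-0.13), and for Higd1a over wild type with the block (0.01) and with gene means (0.02). The cause was not tested, except that the fold rule asks for a change of 1.5-fold. Of the 21 calls with GSH over knockout, the replicate block ended 4 and 16 held under all alternatives except the fold rule; of the 22 in knockout over wild type, 6 held, and of the 26 with GSH over wild type, 17. Whether the replicate numbers pair wild type arrays is not known, so a call lost there under the block does not settle its size.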

Other observations

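Pgk1 also differed between its probe sets. With GSH over wild type, its probe sets gave log2 values of 0.30, 0.24 and -0.35, called in opposite directions, as those of Egln1 were.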
